A study of Mus musculus with 8 samples.

Results

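The YAP-TAZ target genes examined here were 10 genes that are read out in many systems as a measure of YAP and TAZ activity: Ccn2 (named Ctgf on the array), Ccn1 (Cyr61 on the array), Ankrd1, Amotl2, Axl, Lats2, Ajuba, Ptpn14, Nuak2 and Crim1. They were found by the gene name of each spot in the scanner files, which gave 11 probes among 55698 (10 of 34834 gene names), with 1 probe per gene except for Lats2, which had 2. Of the 10 genes, 9 passed the filter on dim probes and were among the 18026 genes tested, and Ankrd1 did not pass.

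YAP and TAZ are transcriptional coactivators with no DNA-binding domain of their own, which act mainly through the TEAD family of DNA-binding proteins. The Hippo kinase cascade, in which LATS1 and LATS2 phosphorylate YAP and TAZ, holds them out of the nucleus. Tension in the actin cytoskeleton and adhesion to a stiff matrix favour their entry into the nucleus, so that their target genes are widely used as a reading of the state of the actin cytoskeleton. In melanoma cells the pathway is known for its part in invasion.

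The study compared B16 cells, an established mouse melanoma line, grown in high-glucose medium with fetal bovine serum, in 4 groups of 2 biological replicates. The groups were the control labelled 0 h, whose source label reads "Non targeted control", SEMA3E treatment for 2 h, SEMA3E treatment for 8 h, and cytochalasin D treatment for 8 h. SEMA3E is a secreted semaphorin whose receptor is plexin D1, and cytochalasin D is a fungal compound that caps actin filaments and stops their growth. The labels give no dose, no vehicle and no 8 h control, so each 8 h group was set against a control of another time, and cytochalasin D and SEMA3E at 8 h are the 1 pair of treatments matched in time. The 3 comparisons with control share the same 2 control arrays.

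Each sample was read on 1 single-colour array. Levels are log2 of the processed signal minus the 75th percentile of the array, taken among probes that every array showed well above background, so a difference of 1 is a 2-fold difference, and levels of different probes are not set against each other. The pigment cell markers Dct, Tyrp1, Pmel, Tyr, Mlana, Mitf and Sox10 were well above background on all 8 arrays (7 of 7). Of the markers of other cell types, 2 of 5 fibroblast, 2 of 5 macrophage and leukocyte, 2 of 4 endothelial and 0 of 4 keratinocyte markers were above background on all 8 arrays. Of these markers, Lum, Pdgfra, Lyz2, Cdh5, Tie1 and Cdh1 were above background on no array, while Col1a1, Col1a2 and Cd68 were among those above it on all 8. The SEMA3E 2 h arrays were dimmer than the others: the 75th percentile that scaled them was a signal of 1196 and 1167, against 1409 to 2768 on the other 6 arrays. SEMA3E 2 h replicate 2 had 214 outlier spots, against 6 to 24 elsewhere, and the lowest share of spots well above background, 37.8% against up to 48.2%. The median signal of the negative control spots was 51.3 on SEMA3E 8 h replicate 2 and 27.9 to 32.2 on the others. Across genes, 5 of the 8 arrays correlated most with an array of another group. Control replicate 1 and SEMA3E 2 h replicate 1 were nearest to each other (r = 0.987, against 0.974 and 0.973 with their own replicates), as were control replicate 2 and cytochalasin D replicate 1 (r = 0.993). The share of genes more than 2-fold apart between the replicates was 14.3% in control, 14.2% in SEMA3E 2 h, 9.65% in SEMA3E 8 h and 8.76% in cytochalasin D. All arrays were on 1 slide with the groups in neighbouring positions, so position and treatment cannot be told apart.

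TEAD proteins bind a short DNA motif, and the promoters of 4 of these genes are shown to place it. Of the 10 genes, 8 had an entry in the RefSeq promoter table (GRCm38.p6), and Ccn2 and Nuak2 did not. In the 250 bases before the annotated start, 7 of the 8 held GGAATG, or CATTCC when the motif lies on the other strand, and Lats2 held none in either of its 2 windows. The same search found the motif before 14.4% of 27025 genes, and in 12.6% of all 32851 windows of this length. Ajuba and Ankrd1 each held it at 2 places, as did 1.02% of all windows. The motif TGANTCA of the AP-1 factors, which often sit beside TEAD, was in 0 of the 8, and before 7.82% of all genes. The 250 bases before the start of Ccn1, Amotl2, Ajuba and Ankrd1 read as follows, 5′ to 3′ on the strand of the gene, with the TEAD motif in capitals. Ccn1 and Amotl2 are shown because they had the lowest differences from control at 2 h of SEMA3E, and Ajuba and Ankrd1 because they carry a pair of motifs.
Ccn1, chr3:145649986-145650235, minus strand: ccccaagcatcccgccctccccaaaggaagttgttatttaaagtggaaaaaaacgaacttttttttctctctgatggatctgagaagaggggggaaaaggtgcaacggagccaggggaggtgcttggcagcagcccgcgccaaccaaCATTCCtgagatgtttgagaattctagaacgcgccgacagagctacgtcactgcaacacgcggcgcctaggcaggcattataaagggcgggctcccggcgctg
Amotl2, chr9:102717554-102717803, plus strand: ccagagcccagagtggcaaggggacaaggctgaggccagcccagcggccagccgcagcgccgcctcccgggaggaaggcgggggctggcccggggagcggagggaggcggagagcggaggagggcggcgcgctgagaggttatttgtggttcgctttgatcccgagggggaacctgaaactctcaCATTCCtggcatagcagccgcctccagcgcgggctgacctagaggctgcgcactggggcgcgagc
Ajuba, chr14:54577662-54577911, minus strand: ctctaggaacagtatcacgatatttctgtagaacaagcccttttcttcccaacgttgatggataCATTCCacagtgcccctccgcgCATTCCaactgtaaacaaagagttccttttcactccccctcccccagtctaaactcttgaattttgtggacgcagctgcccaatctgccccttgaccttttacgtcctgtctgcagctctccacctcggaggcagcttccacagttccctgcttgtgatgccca
Ankrd1, chr19:36119845-36120094, minus strand: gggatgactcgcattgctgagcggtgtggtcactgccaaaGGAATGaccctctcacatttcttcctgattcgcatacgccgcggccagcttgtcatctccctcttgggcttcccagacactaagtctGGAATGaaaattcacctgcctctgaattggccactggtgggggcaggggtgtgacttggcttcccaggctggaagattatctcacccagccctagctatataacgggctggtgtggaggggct

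**Figure D1:**
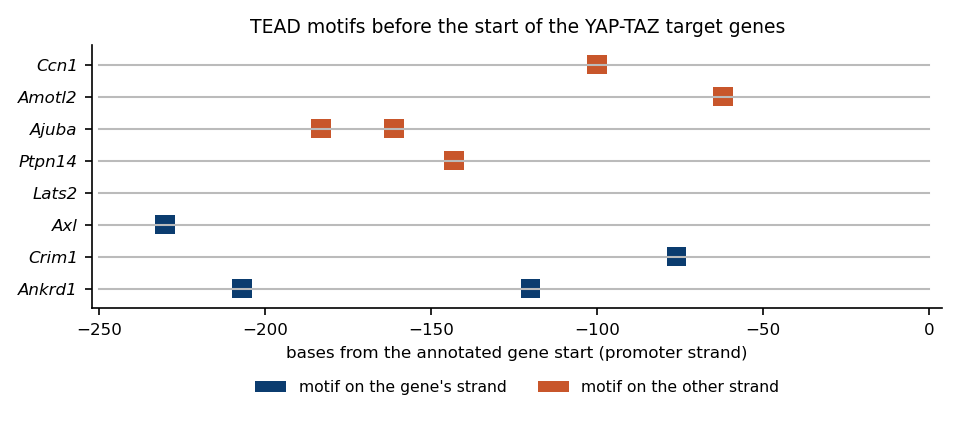
Positions of the TEAD motif before the annotated start of the 8 genes with a promoter entry; the horizontal axis is the distance in bases from the start, blue boxes are motifs on the gene's strand and orange boxes motifs on the other strand. The motif lay 65 bases before the start of Amotl2, 79 before Crim1, 103 before Ccn1, 146 before Ptpn14, 233 before Axl, at 186 and 164 before Ajuba and at 210 and 123 before Ankrd1, and Lats2 held none.

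The motif was on the strand of the gene in Ankrd1, Axl and Crim1 and on the other strand in Ccn1, Amotl2, Ajuba and Ptpn14. With the 50 bases after the start included, 8 of the 8 genes held it, Lats2 among them, as did 16.6% of all genes. Base composition differed widely among these promoters, from 44.8% G and C in the second Lats2 window to 80.8% in Ptpn14. A match of these letters is a description of the sequence, and the arrays carry no reading of binding.

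No YAP-TAZ target gene passed the test in any comparison. In limma's test on all 8 arrays with Benjamini-Hochberg adjustment over 18026 genes, 0 of the 9 tested genes had an adjusted p under 0.05 in any of the 5 comparisons. The percentage of all genes called was 0 for SEMA3E 2 h minus control, 0.00555 for SEMA3E 8 h minus control, 0 for cytochalasin D minus control, 0.00555 for cytochalasin D minus SEMA3E 8 h and 0 for SEMA3E 8 h minus 2 h. With 2 arrays a group a difference had a median standard error of 0.34 (log2), so differences of the size seen here could not be told from the spread between replicates after adjustment. The values that follow are therefore levels and differences that did not pass. In such bulk RNA, fewer cells with a transcript and less of it per cell cannot be told apart.

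**Figure D2:**
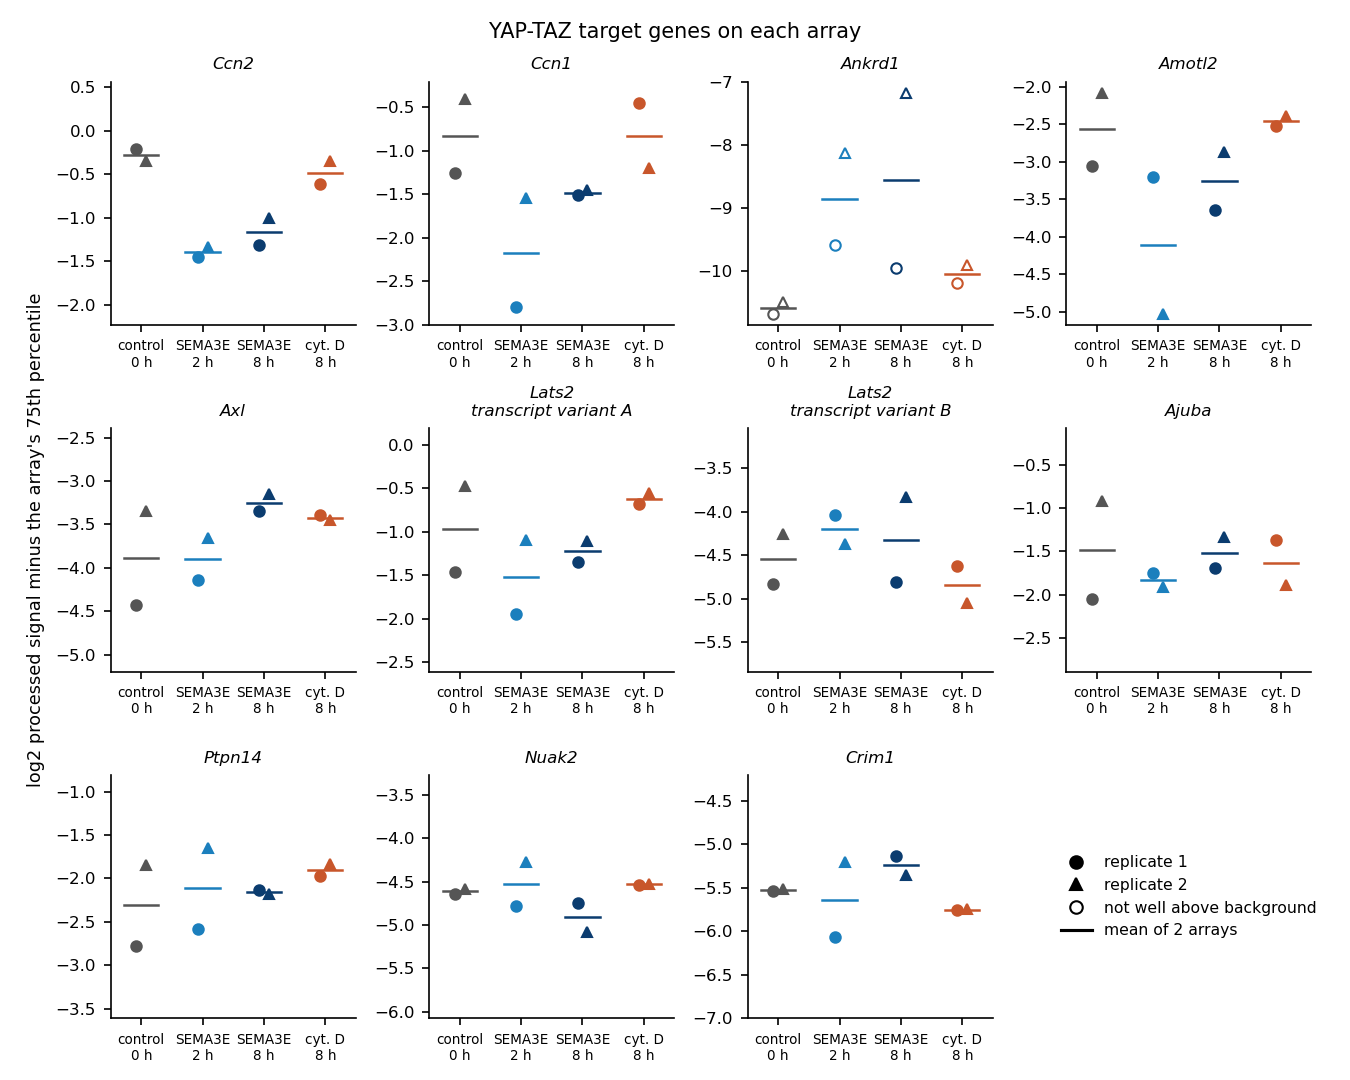
Level of each of the 11 probes on each array (log2 processed signal minus the array's 75th percentile; the vertical scale differs between panels); circles are replicate 1, triangles replicate 2, lines the mean of 2 arrays and open symbols spots not well above background. Ccn2 was lower on all 4 SEMA3E arrays than on the 2 control and 2 cytochalasin D arrays, an order whose share among all genes was not counted. Ankrd1 was not well above background on any array.

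Ccn2, which encodes a secreted matricellular protein also known as connective tissue growth factor, had the smallest p-value of the 9 genes after SEMA3E. Its level was -0.21 and -0.35 in control, -1.45 and -1.34 after 2 h of SEMA3E, -1.32 and -1.01 after 8 h of SEMA3E, and -0.61 and -0.35 after cytochalasin D. All 4 SEMA3E arrays lay below all 4 other arrays, and replicates of a group differed by at most 0.31. The share of all genes with this order was not counted. Both SEMA3E arrays were below both control arrays for 15.2% of all genes at 2 h and 12.4% at 8 h. The processed signal, before scaling, was 2391 and 1811 in control, 437 and 461 at 2 h of SEMA3E, and 1094 and 1119 at 8 h.

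For Ccn2 the difference from control was -1.12 ± 0.26 (SE) at 2 h, a 2.17-fold lower signal, with an interval of -1.72 to -0.52 at 95% confidence. It ranked 126th by p among all genes (unadjusted p = 0.00294, adjusted p = 0.421, limma). At 8 h the difference was -0.88 ± 0.26, 1.85-fold lower (unadjusted p = 0.00999, adjusted p = 0.682). Alternatives that change the filter on dim probes, the probe rule or the model of the spread could not move the Ccn2 value. Nor could leaving out an array outside the comparison. In each of the 21 alternatives the value stayed below 0 in both comparisons, at -1.71 to -0.84 for 2 h and -2.04 to -0.73 for 8 h. At 2 h the adjusted p of these alternatives lay between 0.0526, after normexp background correction, and 0.913, without control replicate 2. With cytochalasin D, Ccn2 differed from control by -0.20 ± 0.26, and cytochalasin D lay 0.68 ± 0.26 above SEMA3E at 8 h (unadjusted p = 0.0315, adjusted p = 0.445).

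Ccn1, a secreted matricellular protein of the same family that signals through integrins, was lower on both SEMA3E arrays of each time than on both control arrays, but its replicates differed more. Its level was -1.26 and -0.40 in control, -2.80 and -1.54 at 2 h of SEMA3E, -1.51 and -1.45 at 8 h, and -0.45 and -1.20 with cytochalasin D. The 2 arrays of SEMA3E 2 h were 1.26 apart and the control arrays 0.85 apart. The difference from control was -1.34 ± 0.50 at 2 h (unadjusted p = 0.0291, adjusted p = 0.518), with an interval of -2.51 to -0.18, and -0.65 ± 0.50 at 8 h (adjusted p = 0.886). Without SEMA3E 2 h replicate 1 the 2 h difference was -0.72, and without SEMA3E 2 h replicate 2 it was -1.97. With cytochalasin D the mean level, -0.82 ± 0.53 (SD, n = 2), was 0.01 ± 0.50 (SE) from the control mean, and this sign turned without control replicate 1 and in 3 other alternatives.

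Ankrd1, a muscle ankyrin repeat protein and nuclear cofactor that is a strong YAP target in many cells, was not well above background on any of the 8 arrays. Its processed signal was between 1.47 and 15.6, so its spots give only a bound, no fold is given, and nothing can be said of its change in these cells. Of its paralogs, Ankrd2 and Ankrd23 were well above background on all 8 arrays.

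The next 4 genes encode proteins that act back on the pathway. Lats2 is the Hippo kinase that phosphorylates YAP and TAZ, Amotl2 is an angiomotin family protein that binds YAP at junctions and actin, Ajuba is a LIM-domain protein that binds and inhibits LATS kinases, and Ptpn14 is a phosphatase that binds YAP and keeps it in the cytoplasm.

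Amotl2 had the largest difference of the 9 genes at 2 h of SEMA3E, and the widest interval. Its level was -3.06 and -2.08 in control, -3.21 and -5.03 at 2 h, -3.65 and -2.87 at 8 h, and -2.52 and -2.39 with cytochalasin D. Both 2 h arrays were below both control arrays, replicate 1 by 0.15 from the nearer of them. The difference at 2 h was -1.55 ± 0.62 (unadjusted p = 0.0391, adjusted p = 0.518, interval -3.00 to -0.10). It was -0.64 without SEMA3E 2 h replicate 2 and -2.46 without replicate 1 of that group, so its size depended on which of these arrays was kept. Replicate 2, with the lowest reading, is the array with the most outlier spots, and the part of this in the reading was not tested. At 8 h the SEMA3E arrays overlapped the control arrays, with a difference of -0.69 ± 0.62 (adjusted p = 0.907).

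Lats2 was measured by 2 probes, for transcript variants A and B, and the brighter probe, for variant A, stood for the gene. The variant A probe read -1.46 and -0.47 in control, -1.95 and -1.09 at 2 h of SEMA3E, -1.34 and -1.10 at 8 h and -0.68 and -0.55 with cytochalasin D. The variant B probe read -4.83 and -4.25, then -4.04 and -4.37, then -4.81 and -3.83, and -4.63 and -5.05 in the same order. Every treated group overlapped the control arrays in the variant A probe, because the control replicates lay 0.99 apart.

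The differences of both Lats2 probes had opposite signs in all 5 comparisons. With each probe tested on its own among 24668 probes, variant A differed from control by -0.56 ± 0.43 and variant B by 0.34 ± 0.41 at 2 h of SEMA3E. The values were -0.26 ± 0.43 and 0.22 ± 0.41 at 8 h, and 0.34 ± 0.43 and -0.30 ± 0.41 with cytochalasin D. No adjusted p of either probe was below 0.587, and the difference between the probes was not tested.

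Ajuba and Ptpn14 had no treated group that lay apart from the control arrays. Ajuba read -2.04 and -0.92 in control, -1.75 and -1.91 at 2 h of SEMA3E, -1.69 and -1.34 at 8 h and -1.37 and -1.89 with cytochalasin D, so that all 6 treated arrays lay between the 2 control arrays. Its differences from control were -0.35 ± 0.41, -0.03 ± 0.41 and -0.15 ± 0.41 in that order. Ptpn14 read -2.77 and -1.84 in control, -2.58 and -1.65 at 2 h, -2.13 and -2.18 at 8 h and -1.97 and -1.84 with cytochalasin D. Its differences were 0.19 ± 0.42, 0.15 ± 0.42 and 0.40 ± 0.42, and the sign of the 8 h value turned when arrays were scaled to their median or 75th percentile over all probes, after removal of the GC trend and without control replicate 1. The control replicates lay 1.12 apart for Ajuba and 0.93 apart for Ptpn14.

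The remaining 3 genes encode a receptor, a kinase and a membrane protein. Axl, a receptor tyrosine kinase that marks invasive melanoma cells, read -4.43 and -3.35 in control, -4.14 and -3.65 at 2 h of SEMA3E, -3.35 and -3.15 at 8 h, and -3.40 and -3.45 with cytochalasin D. Both 8 h treatments had their 2 arrays close together and near the upper control array. Its difference from control was -0.01 ± 0.39 at 2 h, 0.64 ± 0.39 at 8 h of SEMA3E (adjusted p = 0.867), the 1 positive value above 0.5 among the 9 genes in that comparison, and 0.47 ± 0.39 with cytochalasin D. When arrays were scaled to their median over all probes instead, the 8 h SEMA3E value was -0.52, and the median of all genes moved from 0.12 to -1.04.

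Nuak2, a kinase of the AMPK family that acts on actomyosin, was measured by an unusual probe: 70% of its 60 bases were T and 23.3% were G or C, which put it at the 0.636th percentile of GC content among the array's probes. The last 30 of its 60 bases are shown because of this composition, with the T bases in capitals.
Nuak2 probe: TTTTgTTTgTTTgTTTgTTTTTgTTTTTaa
Its level was -4.64 and -4.58 in control, -4.78 and -4.27 at 2 h of SEMA3E, -4.74 and -5.08 at 8 h, and -4.53 and -4.53 with cytochalasin D. Both 8 h SEMA3E arrays were below both control arrays, and both cytochalasin D arrays above them, by small steps. The differences were -0.30 ± 0.28 at 8 h of SEMA3E, 0.08 ± 0.28 with cytochalasin D, and 0.38 ± 0.28 between both (adjusted p = 0.611). How specific the signal of this probe is was not tested.

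Crim1, a transmembrane protein that binds bone morphogenetic proteins, read -5.54 and -5.51 in control, -6.07 and -5.20 at 2 h of SEMA3E, -5.13 and -5.35 at 8 h, and -5.76 and -5.75 with cytochalasin D. Both 8 h SEMA3E arrays were above control and both cytochalasin D arrays below it. The differences from control were 0.28 ± 0.33 and -0.23 ± 0.33, and cytochalasin D lay -0.51 ± 0.33 from SEMA3E at 8 h (adjusted p = 0.561). All 3 signs turned in some of the 21 alternatives: 19, 20 and 20 of them kept the sign.

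**Figure D3:**
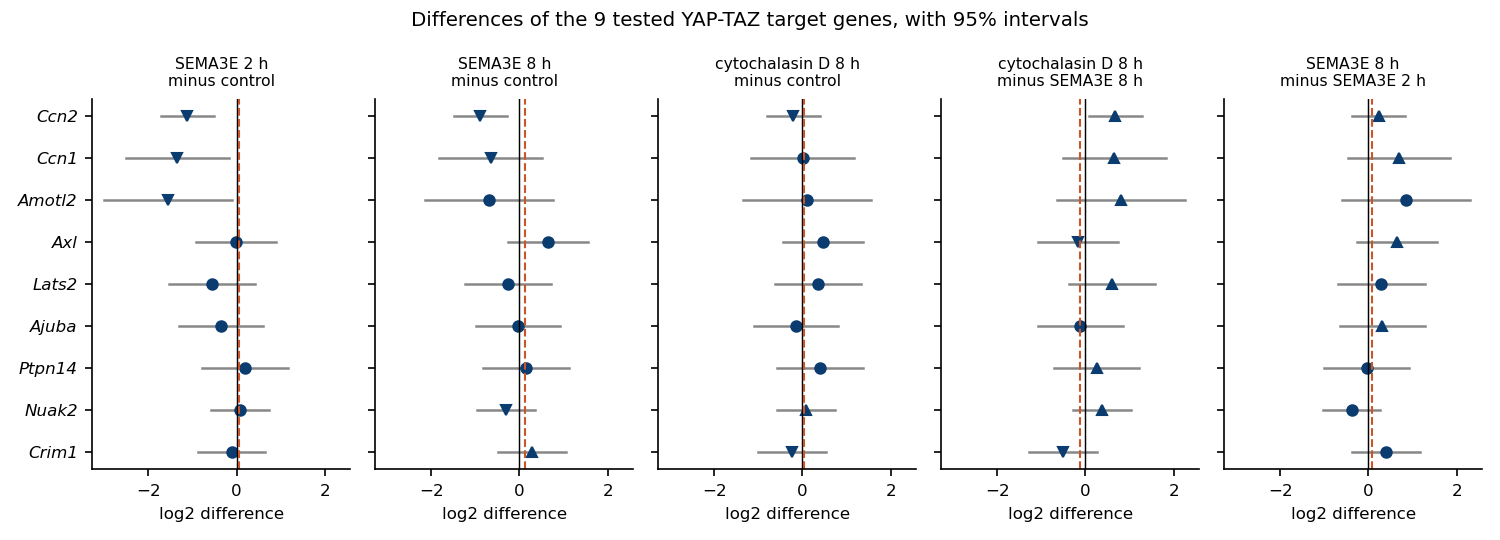
Differences of the 9 tested genes in the 5 comparisons (log2), with 95% intervals as grey lines; downward triangles mark genes whose 2 arrays in the first group were both below both arrays of the second, upward triangles the reverse, and dashed orange lines the median of all 18026 genes. Ccn2, Ccn1 and Amotl2 are the 3 genes with intervals below 0 at 2 h of SEMA3E, and Ccn2 alone at 8 h.

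At 2 h of SEMA3E the median of the 9 genes lay below that of all genes, with the lowest values in Ccn2, Ccn1 and Amotl2, while Ptpn14 and Nuak2 lay above it. At an unadjusted p under 0.05, 3 of the 9 were lower and 0 higher, against 3.9% and 5.59% of all genes. The same 3 genes had both SEMA3E arrays below both control arrays, as did 15.2% of all genes, and 0 had both above, against 24.5%. The median of the 9 differences was -0.35, against 0.06 for all genes, and 7 of 9 were below 0 and 2 above, against 45.1% and 54.9% of all genes. The median was -0.91 without control replicate 1, -0.06 without control replicate 2 and -0.13 without SEMA3E 2 h replicate 1. It was -0.11 with probes averaged per gene and -0.18 in the deposited table, or -0.14 and -0.19 relative to all genes.

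Other measures moved at 2 h as well, and their part in these values was not tested. The 2 h arrays had a dimmer signal. The summed level of the pigment cell markers was 7.74 to 7.93 at 2 h, against 7.35 on both control arrays, with Mlana 0.67 ± 0.25 and Tyrp1 0.70 ± 0.27 above control and Tyr -0.75 ± 0.34 from it. That of the keratinocyte markers was -5.13 to -4.36, against -6.07 to -6.00, with Krt14 at 0.92 ± 0.37 and Cdh1 above background on no array. The endothelial sum was -4.28 to -2.91 against -4.41 to -4.00, the macrophage and leukocyte sum -2.74 to -2.74 against -3.06 to -2.94, and the fibroblast sum -3.09 to -2.71 against -2.93 to -2.77. None of these marker genes passed after adjustment.

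At 8 h of SEMA3E the median of the 9 genes again lay below that of all genes. At an unadjusted p under 0.05, Ccn2 was the 1 lower gene, against 0.749% of all genes, and 0 of 9 were higher, against 5.39%. Both arrays were below control for Ccn2, Ccn1 and Nuak2, as for 12.4% of all genes, and above control for Crim1, as for 25.1%. The median of the 9 was -0.26, against 0.12 for all genes, and 6 of 9 were below 0 and 3 above, against 36.7% and 63.3% of all genes. Without control replicate 2 the median was 0.24. It was -0.08 after normexp, -0.03 with probes averaged per gene and -0.02 in the deposited table, or -0.20, -0.19 and -0.18 relative to all genes. Ccn1 and Ccn2 stayed below control in all 21 alternatives, some of which could not move the value.

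The difference between 8 h and 2 h of SEMA3E was itself tested and passed for none of the 9. The median was 0.32, against 0.09 for all genes, and 0 of 9 had an unadjusted p under 0.05, against 8.24% of all genes higher and 3.36% lower. Of the 9, 7 were above 0 and 2 below, against 56.4% and 43.6% of all genes. Both 8 h arrays were above both 2 h arrays for Ccn2, Ccn1, Axl and Ajuba, as for 27.9% of all genes, and below them for 0 of 9, against 22.6%. Ccn2 was 0.23 ± 0.26 higher at 8 h, Ccn1 0.69 ± 0.50, Amotl2 0.86 ± 0.62 and Axl 0.64 ± 0.39 (adjusted p between 0.494 and 0.687). The Ccn2 value turned to -0.33 with arrays scaled to their median, and to -0.025 with their 75th percentile, over all probes.

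With cytochalasin D the estimated differences of the 9 genes from control were at most 0.47 in size (log2). At an unadjusted p under 0.05, 0 of 9 were lower and 0 higher, against 1.71% and 0.721% of all genes, and the smallest unadjusted p was 0.269, for Axl. The median was 0.08, against 0.03 for all genes, with 6 of 9 above 0 and 3 below, against 53.4% and 46.6% of all genes. Both arrays were below control for Ccn2 and Crim1, as for 13% of all genes, and above it for Nuak2, as for 15.9%. The 95% intervals of the 9 genes did not exclude changes of 2-fold in 1 direction or the other for Ccn1, Amotl2, Axl, Lats2, Ajuba, Ptpn14 and Crim1, and stayed within 2-fold for Ccn2 (-0.80 to 0.40) and Nuak2 (-0.57 to 0.73).

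Between the treatments matched in time, cytochalasin D lay above SEMA3E at 8 h for most of the genes. Both cytochalasin D arrays were above both SEMA3E arrays for Ccn2, Ccn1, Amotl2, Lats2, Ptpn14 and Nuak2 (6 of 9), as for 19.7% of all genes, and below them for Axl and Crim1 (2 of 9), as for 32.7%. Ccn2 was the 1 gene with an unadjusted p under 0.05, against 2.27% of all genes higher and 8.74% lower. The median was 0.38, against -0.13 for all genes, with 6 of 9 above 0 and 3 below, against 39.7% and 60.3% of all genes, and it was between 0.23 and 0.41 with each array left out. The 6 genes kept their sign in all 21 alternatives, some of which could not move the value. Axl, Ajuba and Crim1 turned with arrays scaled to their median over all probes. None of the 9 passed (smallest adjusted p = 0.445, limma), and these arrays are the ones that entered the comparisons with control.

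**Figure D4:**
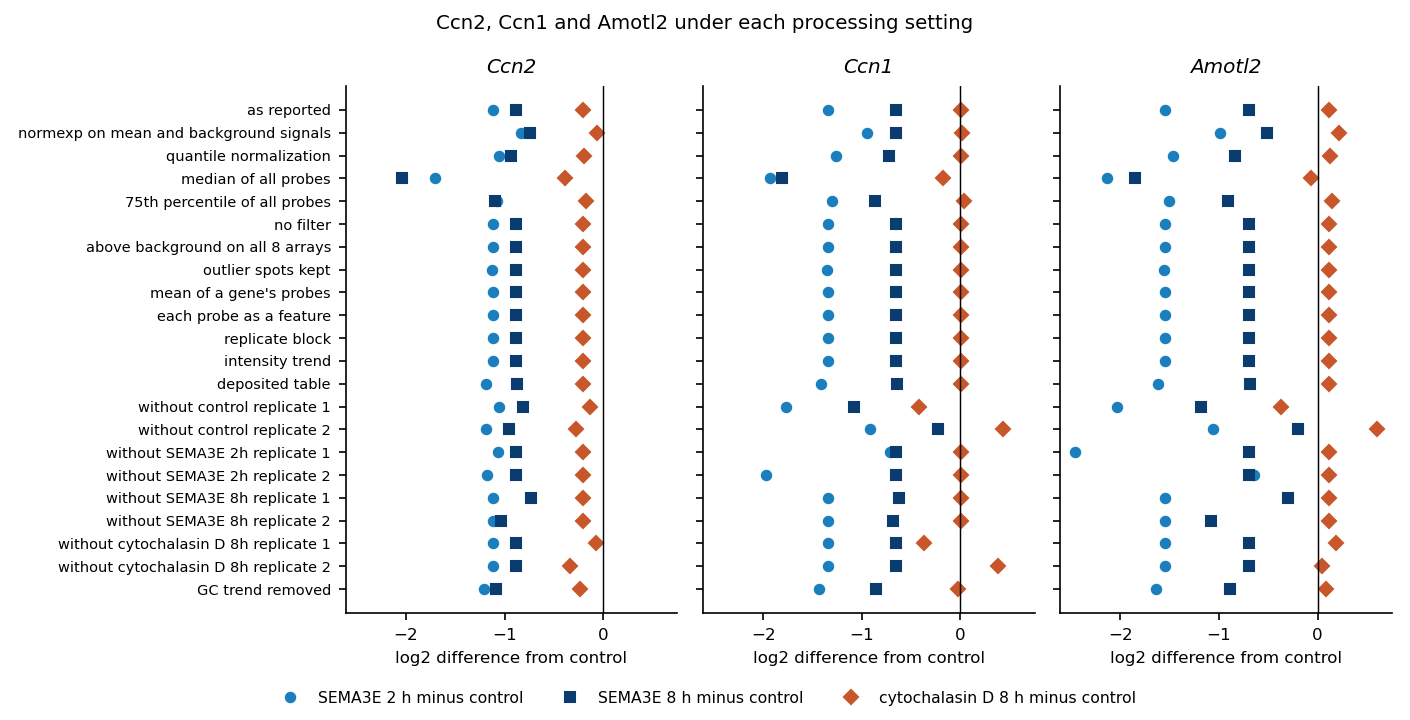
Difference from control (log2) of Ccn2, Ccn1 and Amotl2 as reported and under each of the 21 alternatives, for SEMA3E 2 h (light circles), SEMA3E 8 h (dark squares) and cytochalasin D (orange diamonds). Every SEMA3E point lies below 0 for the 3 genes, and the cytochalasin D points lie on both sides of 0 for Ccn1 and Amotl2. The Amotl2 value at 2 h ranges from -2.46 to -0.64 with 1 array left out. Alternatives that change only the filter on dim probes, the probe rule or the model of the spread repeat the reported value.

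The genes of YAP and TAZ themselves were well above background on all 8 arrays. Wwtr1, the gene of TAZ, read -2.19 and -1.29 in control, -2.48 and -4.84 at 2 h of SEMA3E, -1.11 and -1.49 at 8 h and -1.47 and -1.94 with cytochalasin D. Both 2 h arrays were below the 6 other arrays, replicate 1 by 0.29 from the nearest control array, and the 2 h arrays lay 2.36 apart. Both 2 h arrays were below both control arrays for 15.2% of all genes, and the share below all 6 was not counted. Its difference at 2 h was -1.92 ± 0.71 (unadjusted p = 0.0298, adjusted p = 0.518, limma). The difference was -3.10 without SEMA3E 2 h replicate 1 and -0.74 without replicate 2, each with 1 array left in the group. Without replicate 1 the difference between 8 h and 2 h of SEMA3E was 3.54. Replicate 2, with the lowest reading, is the array with the most outlier spots, and the part of this in the reading was not tested. At 8 h of SEMA3E and with cytochalasin D, Wwtr1 differed from control by 0.44 ± 0.71 and 0.04 ± 0.71.

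Yap1 differed from control by 0.37 ± 0.39 at 2 h of SEMA3E, -0.70 ± 0.39 at 8 h and -0.31 ± 0.39 with cytochalasin D, with no adjusted p below 0.755. Of the 4 TEAD genes, Tead1, Tead2 and Tead4 were well above background on all 8 arrays and Tead3 on 7. Their differences at 2 h of SEMA3E were 0.26 ± 0.31, 0.21 ± 0.31, -0.29 ± 0.29 and -0.76 ± 0.46 for Tead1, Tead2, Tead4 and Tead3. At 8 h the values were -0.29 ± 0.31, -0.00 ± 0.31, -0.57 ± 0.29 and 0.84 ± 0.46. With cytochalasin D they were -0.40 ± 0.31, 0.47 ± 0.31, 0.42 ± 0.29 and 0.77 ± 0.46, and none passed. A second, dimmer Tead1 probe read 0.40 ± 0.36 at 8 h of SEMA3E, against -0.29 ± 0.31 for the brighter one.

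The genes of the Hippo cascade and its partners showed values on both sides of 0. Of 27 genes listed, 23 were tested and 0 passed in any comparison; Lats1, Frmd6, Fat4 and Dchs1 did not pass the filter on dim probes. At 2 h of SEMA3E 14 of 23 were below 0, against 45.1% of all genes, with a median of -0.11. At an unadjusted p under 0.05, 1 of 23 was lower (Wwtr1) and 1 higher (Taok1, a kinase upstream of the cascade), against 3.9% and 5.59% of all genes. Taok1 read 1.26 and 0.01 in control and 1.84 and 1.80 at 2 h, a difference of 1.19 ± 0.46 (adjusted p = 0.518). At 8 h the median was -0.05, with 13 of 23 below 0 against 36.7% of all genes. At an unadjusted p under 0.05 there were 0 of 23, against 0.749% of all genes lower and 5.39% higher. With cytochalasin D the median was 0.02, against 0.03 for all genes, with 12 of 23 above 0 against 53.4%. At an unadjusted p under 0.05, 1 of 23 was lower (Vgll3, a TEAD cofactor) and 0 higher, against 1.71% and 0.721% of all genes. Vgll3 was well above background on both control arrays and neither cytochalasin D array. Its difference was -1.40 ± 0.47 (interval -2.49 to -0.30, adjusted p = 0.9996, limma), an estimated 2.63-fold lower signal and not a minimum. This Vgll3 value turned to 0.31 in 1 of 19 alternatives. At 2 h of SEMA3E, too, neither array was well above background for Vgll3. The difference was -0.09 ± 0.47 as reported and 0.87 after normexp, the 1 of 19 alternatives in which it passed (adjusted p = 0.0487, limma). After normexp the median of all genes was 0.39, and 3391 of 18026 genes passed higher and 40 lower. The medians of the Hippo list took the other sign in 3, 1 and 4 of the 20 alternatives at 2 h, at 8 h and with cytochalasin D, among them 0.27 at 2 h after normexp, with 15 of 23 above 0.

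The 15 other genes of published YAP-TAZ signatures gave 9 tested genes, and 0 passed as reported. After normexp 2 of the 9 passed at 2 h of SEMA3E, both higher: Tgfb2 and Gadd45a, a stress response gene. In that setting 3391 of all 18026 genes passed higher and 40 lower, so passing there was not particular to this list. Gadd45a differed by 0.62 ± 0.51 as reported and by 0.99 after normexp (adjusted p = 0.0493), under which the list had 5 of 9 above 0 and a median of 0.49, and all genes a median of 0.39. Areg, Ereg, Igfbp3 and Nt5e were above background on no array, and Myof and Foxf2 on 1. At 2 h of SEMA3E 6 of 9 were below 0 with a median of -0.18, against 45.1% of all genes below 0. At 8 h 5 of 9 were, with a median of -0.11, against 36.7%. With cytochalasin D 6 of 9 were, with a median of -0.10, against 46.6%. These medians turned above 0 in 2, 3 and 1 of the 20 alternatives. Tgfb2, a growth factor of the transforming growth factor family, read -6.32 and -6.62 in control, -5.65 and -5.70 at 2 h of SEMA3E, -5.88 and -6.03 at 8 h and -7.12 and -7.72 with cytochalasin D, where 1 of 2 arrays was above background.

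On this Tgfb2 probe both SEMA3E groups lay above control and the cytochalasin D group below it. Its differences were 0.79 ± 0.29 (unadjusted p = 0.0284), 0.52 ± 0.29 and -0.95 ± 0.29 (unadjusted p = 0.0131), with adjusted p of 0.518, 0.861 and 0.9996. The adjusted p at 2 h was 0.0486 after normexp, and 0.0486 to 0.929 over its 19 alternatives. The 8 h SEMA3E value kept its sign in 16 of 19 alternatives, down to -0.64, and the cytochalasin D value in 18, up to 0.23. A second, dimmer Tgfb2 probe gave 0.83 ± 0.43 and -0.77 ± 0.43 for the first and last of these and -0.70 ± 0.43 for 8 h of SEMA3E, where the probes disagree in sign. Asap1, which regulates actin and adhesion turnover, differed by -0.59 ± 0.27 at 2 h, and Fjx1 by -0.77 ± 0.44 with cytochalasin D.

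The paralogs of the 10 genes gave 10 tested of 15, and 0 passed as reported. Ccn3 and Ccn6 were above background on no array, Ccn5 and Mertk on 1 and Lats1 on 3, while Ccn4, Amot, Amotl1, Tyro3, Limd1, Wtip and Ptpn21 were above it on all 8. At 2 h of SEMA3E 7 of 10 were below 0 (median -0.17), against 45.1% of all genes (median 0.06). At 8 h 7 of 10 were below 0 (median -0.08), against 36.7% (median 0.12), and with cytochalasin D 10 of 10 were above 0 (median 0.27), against 53.4% (median 0.03). Nuak1, the paralog of Nuak2, read -7.19 and -5.37 in control and -8.17 and -9.24 at 2 h of SEMA3E, where neither array was well above background. The group means gave an estimated 5.37-fold lower signal (unadjusted p = 0.00753, adjusted p = 0.467, limma), which is not a minimum. The control arrays lay 1.82 apart, and the Nuak1 difference was -2.42 as reported (interval -3.98 to -0.87) and -1.51 without control replicate 2. The sign of its difference turned in 1 of 19 alternatives. With arrays scaled to their median over all probes, Nuak1 passed at -3.01 (adjusted p = 0.048, limma). In that setting the median of all genes was -0.53, and 16 of 18026 genes passed lower and 2 higher. Amotl1 differed by -0.61 ± 0.40 at 2 h, where its paralog Amotl2 differed by -1.55 ± 0.62, and Limd1, a relative of Ajuba, by 0.36 ± 0.24 with cytochalasin D.

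**Figure D5:**
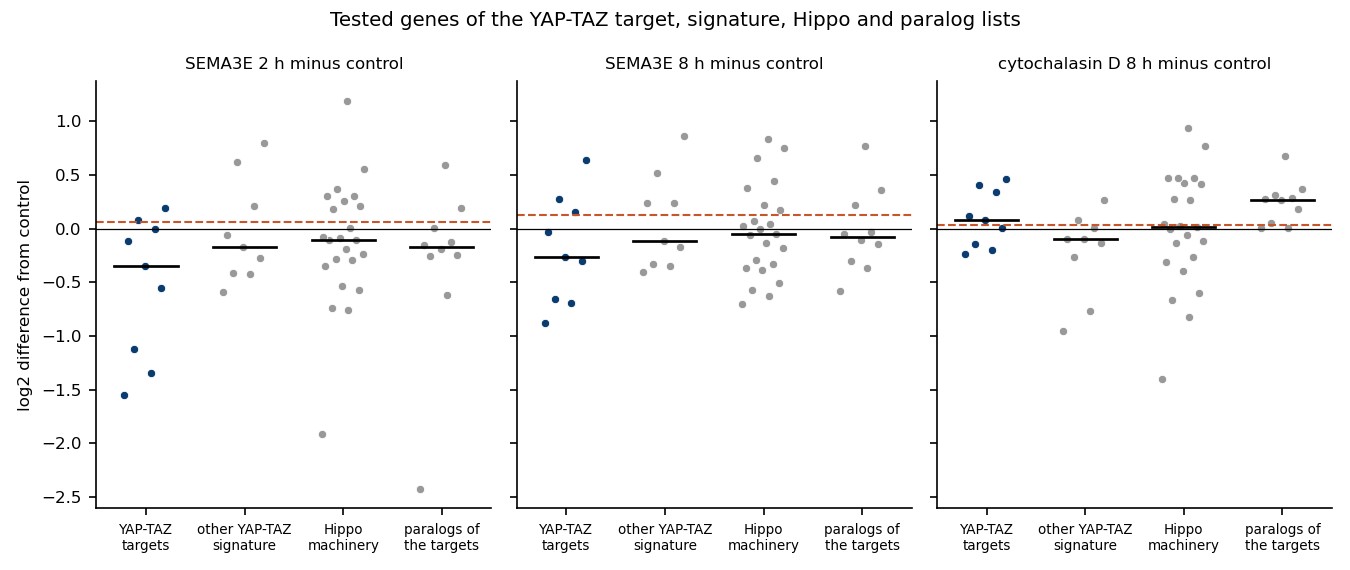
Difference from control (log2) of each tested gene of the YAP-TAZ targets (blue, 9 genes), the other signature genes (9), the Hippo machinery (23) and the paralogs (10); black lines are the median of each list and dashed orange lines the median of all 18026 genes. At 2 h of SEMA3E the lowest points are Nuak1, Wwtr1, Amotl2, Ccn1 and Ccn2, and no point passed the test.

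Over the 8 arrays the genes most like Ccn2 in pattern, by Pearson correlation among all tested genes with a proper symbol, were Pfkfb3 (r = 0.971), Spry1 (0.954), Stk39 (0.951), Fam120a (0.949) and Brd9 (0.940). The genes most like Ccn1 were Pcyox1 (0.955), Zbtb34 (0.930), Tent4a (0.929), Rhob (0.928) and Vmn1r48 (0.925). They were picked as the highest of 18026, and share the arrays and their scaling, so these correlations are a description with no test.

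Among the 9 genes themselves, 36 pairs were correlated over the 8 arrays. In a two-sided exact permutation test 0 pairs had an adjusted p under 0.05 (smallest 0.130, for rho). The arrays were permuted without regard to their groups, so these p-values also reflect differences between groups and are a description. Ccn2 and Ccn1 had r = 0.71 and rho = 0.83 (exact permutation p = 0.033 and 0.0154, adjusted over the 36 pairs 0.299 and 0.185), and r = 0.76 without the 2 arrays farthest from the median of Ccn2. Ccn2 and Amotl2 had r = 0.69 and rho = 0.69 (exact permutation p = 0.0394 and 0.0694, adjusted 0.299 and 0.312), and r = 0.87 without the 2 arrays. With each group's mean removed, r was -0.20 and -0.06 for these pairs. The 2 deviations of a group mirror each other, so every r with group means removed rests on 1 value from each of the 4 groups. The pair with the highest r was Ccn1 and Lats2, at r = 0.87 and rho = 0.76 (exact permutation p = 0.0057 and 0.0368, adjusted 0.205 and 0.221). Its r was 0.57 without the 2 arrays farthest from the median of Ccn1 and 0.81 with the group means removed. Lats2 and Ptpn14 had r = 0.75 and rho = 0.79 over all arrays (exact permutation p = 0.0322 and 0.0279, adjusted 0.299 and 0.201). Their r was 0.65 without the 2 arrays farthest from the median of Lats2, and 0.97 with the group means removed.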

How the data were processed

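RNA of 8 B16 samples (4 groups of 2, biological replicates per the labels) was read on single-colour Agilent arrays of 1 slide. Per the file headers, the authors deposited Agilent Feature Extraction 11.5.1.1 output, in which the processed signal of each spot is a background-subtracted intensity on a linear scale; no dose or statistical test is given in the sources used here. Control spots were left out and outlier spots set missing, spots of a probe were averaged, and log2 of the intensity minus each array's 75th percentile over 18691 probes well above background on all arrays was taken, with no pseudocount. Probes well above background on both arrays of at least 1 group were tested (24668), with the brightest probe for each of 18026 genes. Group means were fitted on all 8 arrays with limma 3.58.1 (R 4.3.3) and eBayes, with 4 residual and 3.39 prior degrees of freedom, and p-values were adjusted by Benjamini-Hochberg over all genes (threshold 0.05). The fit was tested on simulated data. Only 2 arrays a group limit the precision.

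The 10 genes and the lists of other genes were chosen with earlier results of these data known. All 10 genes are named, with every probe; of each list the 3 genes with the smallest unadjusted p over the comparisons with control are named, plus Yap1, Wwtr1, the TEAD genes and any gene that passed, and the 5 genes most like Ccn2 and Ccn1. Some probes were not well above background on either array of a group. For a fold, such a group was taken at the probe's own signal or the lowest signal among probes well above background, whichever is higher. The fold is then an estimate at that level, and not a minimum over the spread between replicates. The authors' deposited table, whose values for gene names with 1 spot lay within 1% of the spot's processed signal for 99.99%, background correction by normexp (offset 50), other scalings, filters, probe rules, a replicate block, an intensity trend, a GC trend and leaving out each array were the alternatives. Array names were updated through RefSeq (27673 probes matched). Promoters are RefSeq's, GRCm38.p6.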

Additional observations from a re-analysis of the deposited data

How the results depend on the processing

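None of the 9 genes passed the threshold in any of the 945 values computed under 21 alternatives, of which 886 kept the direction reported and 59 reversed it; 18 of 45 pairs of gene and comparison never reversed. Many of the 945 values could not change direction. The filter on dim probes, the replicate block, the intensity trend and leaving out an array outside the comparison left the estimates as they were. So did the probe rules for genes with 1 probe. The lowest adjusted p was 0.0526 (limma), for Ccn2 at 2 h of SEMA3E after normexp. Over all genes at 2 h of SEMA3E, 3431 passed after normexp, 18 when arrays were scaled to their median over all probes (median scaling) and 20 in the deposited table, against 0 as reported. At 8 h of SEMA3E (1 as reported) 0 passed after normexp, quantile normalization, median scaling, no filter, above background on all 8 arrays and the intensity trend, 2 with probes averaged per gene or the GC trend removed, and 13 in the deposited table. With cytochalasin D against control (0 as reported) 2 passed with median scaling and 9 in the deposited table. Against SEMA3E at 8 h (1 as reported) 0 passed with quantile normalization, the 75th percentile of all probes, no filter, above background on all 8 arrays, outlier spots kept, each probe as a feature or the GC trend removed, 7 with median scaling and 13 in the deposited table. For SEMA3E at 8 h against 2 h (0 as reported) the counts were 36 with median scaling and 20 in the deposited table. Same-numbered samples were not paired (correlations of their deviations between -0.146 and 0.141); the replicate block called 0 of the 9 genes, 7 genes in all at 8 h of SEMA3E and 0 between cytochalasin D and SEMA3E at 8 h. Median scaling moved the median of the 9 genes to -0.94 at 2 h, -1.42 at 8 h, 1.36 for cytochalasin D against SEMA3E and -0.25 for 8 h against 2 h, and that of all genes to -0.53, -1.04, 0.85 and -0.48; relative to all genes the 9 lay at -0.41, -0.38, 0.51 and 0.23. Reversed by normexp were Axl (0.48) and Crim1 (0.53) at 2 h, Ajuba (0.030) at 8 h, Crim1 (0.23) with cytochalasin D, and Ptpn14 (0.14) and Crim1 (-0.29) for 8 h against 2 h. Reversed by quantile normalization were Axl (0.066) at 2 h, Crim1 (-0.087) at 8 h and Axl (0.017) for cytochalasin D against SEMA3E. Reversed by median scaling were Ptpn14 (-0.40) and Nuak2 (-0.51) at 2 h; Axl (-0.52), Ptpn14 (-1.01) and Crim1 (-0.88) at 8 h; Ccn1 (-0.17), Amotl2 (-0.066) and Nuak2 (-0.10) with cytochalasin D; Axl (0.81), Ajuba (0.87) and Crim1 (0.47) for cytochalasin D against SEMA3E; and Ccn2 (-0.33), Lats2 (-0.27), Ajuba (-0.25) and Crim1 (-0.18) for 8 h against 2 h. Reversed by the 75th percentile of all probes were Axl (0.037) at 2 h, Ptpn14 (-0.067) at 8 h, Axl (0.074) and Ajuba (0.14) for cytochalasin D against SEMA3E and Ccn2 (-0.025) for 8 h against 2 h. Removal of the GC trend, chosen after seeing the data, reversed Ptpn14 (-0.0023) at 2 h and (-0.26) at 8 h, Ccn1 (-0.028) with cytochalasin D and Ajuba (0.055) against SEMA3E, and the deposited table Ptpn14 (0.036) for 8 h against 2 h. With 1 array left out, the genes called ranged from 0 to 417 at 2 h (417 without SEMA3E 2 h replicate 1), 0 to 2 at 8 h, 0 to 1 with cytochalasin D, 0 to 0 against SEMA3E and 0 to 460 for 8 h against 2 h (460 without SEMA3E 2 h replicate 1), and the median of the 9 genes from -0.91 to -0.060 at 2 h and -0.59 to 0.24 at 8 h. The genes that reversed with 1 array left out ranged as follows: at 2 h Axl -0.55 to 0.54, Ajuba -0.91 to 0.21, Ptpn14 -0.28 to 0.66, Nuak2 -0.17 to 0.34 and Crim1 -0.55 to 0.32; at 8 h Lats2 -0.76 to 0.24, Ajuba -0.59 to 0.53 and Ptpn14 -0.32 to 0.62; with cytochalasin D Ccn1 -0.42 to 0.43, Amotl2 -0.37 to 0.60, Axl -0.078 to 1.01, Lats2 -0.15 to 0.84, Ajuba -0.71 to 0.41 and Ptpn14 -0.065 to 0.87; against SEMA3E Ajuba -0.37 to 0.15; for 8 h against 2 h Amotl2 -0.051 to 1.77, Lats2 -0.13 to 0.72, Ptpn14 -0.51 to 0.43 and Crim1 -0.044 to 0.83. The cause of these changes was not tested. Ankrd1, at background on all arrays, gives no value.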
